A study of Mus musculus with 2 samples.

Results

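The cadherins of the classical type and the neural cell adhesion molecule Ncam1 were followed through the cell types of the embryonic day 11 aorta-gonad-mesonephros (AGM) region, where the first hematopoietic stem cells of the mouse arise. These adhesion genes were chosen by name, as 10 of the 31053 genes in the count tables: Cdh1, Cdh2, Cdh3, Cdh5, Cdh6, Cdh11, Cdh13, Cdh15, Cdh19 and Ncam1. Whole AGMs were dissociated and run on the 10x Chromium 3′ platform as 1 library of PDGFRB +/+ embryos (WT) and 1 library of PDGFRB -/- embryos (KO), homozygous for the knockout allele of the receptor PDGFRβ and bred from heterozygotes on C57BL/6J. How many embryos entered each library is not given in the sources used here. Cells were taken as barcodes with at least 2000 unique molecular identifiers (UMIs, each counting 1 captured RNA molecule) and under 10% mitochondrial UMIs, which left 8253 WT and 8165 KO cells.

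Cadherins hold cells of the same kind together. Their extracellular repeats bind the same or a related cadherin on the neighbouring cell in the presence of calcium, and the cytoplasmic tail of most of them binds β-catenin and p120-catenin, which connect the junction with actin. Cell types of the embryo carry different cadherins, and changes from one cadherin to another accompany epithelial-to-mesenchymal transition, emigration of the neural crest and fusion of muscle cells. Ncam1 belongs to the immunoglobulin superfamily, and polysialic acid on its extracellular part weakens its adhesion. Cdh13 differs from the other cadherins in that a lipid anchor, without a cytoplasmic tail, holds it to the membrane.

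Levels are given as CPM, the UMIs of a gene divided by all UMIs of its cell class and multiplied by a fixed factor of 1000000, a scale that needs no correction for gene length because 3′ libraries count each molecule once. Brackets hold 95% intervals, exact Poisson for CPM and exact binomial for shares and ratios. They cover counting error only, and with 1 library per genotype no test between WT and KO was possible. Cells were assigned to 14 classes by small sets of marker genes, none of them an adhesion gene studied here, and cells that met several gates were set aside (865 in WT, 660 in KO). A further 1123 WT and 1058 KO cells, with medians of 3202 and 3325.5 UMIs, met no gate and are in no class. Of the 14 classes, 12 held at least 50 cells in both libraries, and an independent marker was highest in its own class in both libraries for all of them except other mesenchyme. The libraries were of like depth (median 13321 and 12391 UMIs per cell) and shared 20 cell barcodes. Pdgfrb had 43.1 CPM in WT against 7.09 in KO, where counts from a 3′ end do not show which part of the gene was deleted. Xist had 793 CPM in WT against 0.415 in KO, so genotype cannot be told apart from the sex of the embryos. Barx1, a transcription factor of the stomach mesenchyme, had 35.1 CPM in WT against 0.724 in KO, so genotype cannot be told apart from the extent of the dissected region either.

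Levels of the adhesion genes differed by lineage, and 7 of the 9 genes with enough UMIs had the same highest of the 12 classes in both libraries. Cdh5 was found in endothelial cells, Cdh6 and Cdh19 in glial cells of the neural crest, Cdh15 in muscle cells and Cdh11 most of all in mural cells. Cdh2, Cdh11 and Ncam1 each had at least 20 UMIs, over both libraries, in all of the 12 classes. Cdh3 and Ncam1 were the genes whose highest class changed between libraries, and Cdh1 was found in few cells, most of them with the epithelial gene Epcam. In macrophages, no adhesion gene exceeded 17.7 CPM in WT or 15.5 CPM in KO. Of the 10 genes, 6 lie on chromosome 8, and among them Cdh5 was highest in endothelial, Cdh11 in mural and Cdh13 and Cdh15 in myoblast cells.

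**Figure D1:**
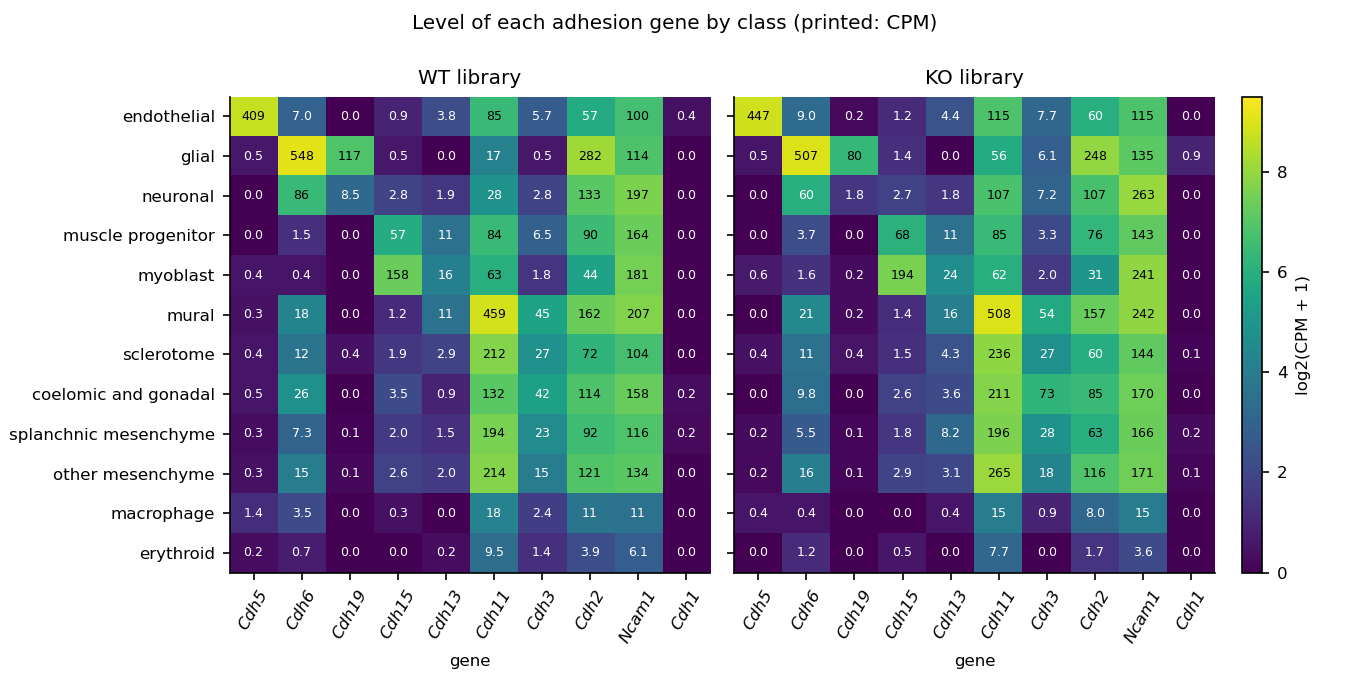
Level of each adhesion gene (columns) in the 12 marker-gated classes (rows) of the WT and KO libraries. Colour gives log2(CPM + 1) and the printed value the CPM. Cdh5 stood out in the endothelial row (409 CPM in WT, 447 in KO), Cdh6 and Cdh19 in the glial row, Cdh15 in the myoblast row and Cdh11 in the mural row, in both libraries.

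Cdh5 (VE-cadherin, chr8:104101625-104144511 of GRCm38) builds the junctions between endothelial cells. The endothelial gate had 409 CPM [393 to 426] in WT against 447 [430 to 464] in KO, and held 98.4% and 99.1% of the Cdh5 UMIs over the 12 classes. Cells set aside for meeting several gates, which are not in these shares, held 169 of all 2490 WT and 360 of all 3053 KO Cdh5 UMIs. The next class reached 1.39 CPM in WT (macrophages) and 0.593 in KO (myoblasts). The gate asked for at least 3 of 9 endothelial genes, and Cdh5 divided the cells inside it. The 66 WT cells with exactly 3 gate genes had Cdh5 at 1.31 CPM and the 97 cells with 5 or more had it at 634 CPM [608 to 661]. In KO, the 61 cells with 3 gate genes held 0 Cdh5 UMIs, which allows a level of up to 2.31 CPM, and the 80 cells with 5 or more had 653 CPM [628 to 678].

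The cells with 3 or 4 gate genes went against their label. The gate held 84 such cells of 181 in WT and 79 of 159 in KO. They had the mesenchymal gene Pdgfra at 179 and 132 CPM and Pecam1, an endothelial gate gene, at 7.58 and 7.40 CPM. In the cells with 5 or more gate genes, Pecam1 was at 351 and 362 CPM and Pdgfra at 21.2 and 7.36 CPM. A split by number of gate genes raises Pecam1 by construction. Vwf, the independent marker of this class, was at 7.58 (WT) and 11.6 CPM (KO) in cells with 3 or 4 gate genes. In cells with 5 or more, Vwf was at 161 and 94.4 CPM. Only the cells with 5 or more gate genes are therefore called endothelial below, a choice made after seeing these values. Of them, 96.9% [91.2 to 99.4] in WT and 95% [87.7 to 98.6] in KO held a Cdh5 UMI. Macrophages, which lack Cdh5, had 2.48% and 0.694% such cells at median depths of 17049 and 15519.5 UMIs, against 29014 and 44174 in endothelial cells. After random thinning of each cell to 2000 UMIs, these shares came to 63.9% and 73.8% in endothelial cells and 0.621% and 0.694% in macrophages.

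Other adhesion genes were low in these endothelial cells. Cdh2 (N-cadherin, which endothelial cells carry beside Cdh5 and use towards pericytes) had 34.8 CPM in WT against 29.7 in KO, Cdh13 4.74 and 4.66 CPM, and Cdh3 1.67 and 1.47 CPM. Cdh11 and Ncam1 were at 13.9 and 21.2 CPM in WT, against 214 and 243 CPM in the cells with 3 or 4 gate genes. The whole gate mixes the endothelial cells with those of 3 or 4 gate genes. Over this mixture, 18 of 181 WT cells (9.94%) held UMIs of both Cdh5 and Cdh11, where the product of the 2 shares is 23.7%. In KO the same comparison gave 9 of 159 cells (5.66%) and a product of 22.2%. Cdh5 and Cdh2 were found together in 25.4% of WT and 25.8% of KO cells, close to their products of 26.9% and 28.1%.

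**Figure D2:**
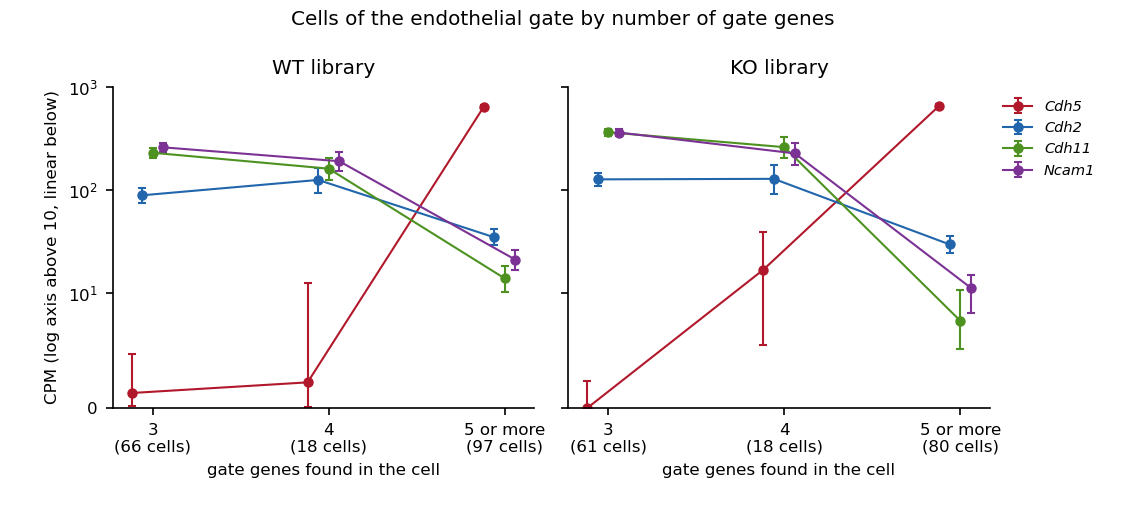
CPM of Cdh5, Cdh2, Cdh11 and Ncam1 in cells of the endothelial gate that held 3, 4 or at least 5 of the 9 gate genes, with exact 95% Poisson intervals, on an axis that is logarithmic above 10 CPM and linear below. Cdh5 was near 0 in cells with 3 gate genes and at 634 CPM (WT) and 653 CPM (KO) in cells with 5 or more, while Cdh11 and Ncam1 went the opposite way, in both libraries.

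Cdh6 (K-cadherin) and Cdh19 mark the neural crest and its Schwann cell lineage, and both were highest in the glial gate, which rests on genes such as Sox10 and Erbb3. Cdh6 (chr15:13028701-13173675) had 548 CPM [515 to 582] in WT against 507 [477 to 538] in KO glial cells, the highest level of any adhesion gene in any class apart from Cdh5 in endothelial cells and, in KO, Cdh11 in mural cells. The neuronal gate followed with 86 and 60.5 CPM. Cdh19 (chr1:110888326-110977584) had 117 CPM [102 to 134] in WT against 79.5 [68.0 to 92.4] in KO glial cells, and glial cells held 90.9% and 88.5% of its UMIs over the 12 classes. Cells set aside for meeting several gates are not in these shares. They held 261 of all 502 WT and 215 of all 416 KO Cdh19 UMIs. Over the 12 classes Cdh6 and Cdh19 were correlated with r = 0.84 in both libraries, a description of 12 points that share the depth of their library.

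Of the 10 genes, 2 (Cdh6 and Cdh15) were matched in the RefSeq promoter table. The Cdh6 promoter is shown because the gene was highest in the cells selected by Sox10, a Sox factor, and other glial genes. These are the 250 bases before its start (GRCm38.p6, chr15:13173676-13173925, minus strand, given 5′ to 3′), with the letters AACAAAG in capitals, a core that Sox factors bind.
Cdh6 promoter: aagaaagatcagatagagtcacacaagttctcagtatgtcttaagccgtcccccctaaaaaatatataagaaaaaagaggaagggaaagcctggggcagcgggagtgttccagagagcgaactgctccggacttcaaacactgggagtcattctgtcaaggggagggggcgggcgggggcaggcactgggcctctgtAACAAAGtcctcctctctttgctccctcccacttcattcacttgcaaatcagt
The match begins 53 bases before the start. The motifs searched on both strands were AACAAAG and AACAATG, which do not overlap here, and AACAATG had no match in this window. AACAAAG was found in 5.03% and either motif in 8.12% of the 32851 windows of the same length in the table. The match is a description of the letters and was not tested as a binding site.

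Both genes were higher in glial cells that held more of the gate genes. WT cells with 3 gate genes had Cdh6 at 143 CPM and Cdh19 at 33.6 CPM, and those with 5 or more had them at 596 and 129 CPM. The KO cells went from 32.2 and 7.16 CPM to 731 and 112 CPM. Depth moved with the number of gate genes, with medians of 4244 and 21838.5 UMIs in these WT cells and 5386.5 and 17878 in KO, and its part was not tested. Both genes were found in 71.4% of WT glial cells, where the product of their shares is 68.0%, and in 70.6% of KO glial cells, with a product of 61.6%. A Cdh6 UMI was found in 92.3% and 85.9% of glial cells, at median depths of 19124 and 17586 UMIs, and in 3.11% and 0.694% of macrophages. No macrophage held a Cdh19 UMI, which allows a share of up to 2.27% of the 161 WT and 2.53% of the 144 KO cells.

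A further population, added after the overlap of the gates was seen, met both the glial and the neuronal gate (55 WT and 45 KO cells). Its levels of Cdh6, Cdh19 and Cdh2 lay between those of the single gates. In WT, Cdh6 went from 548 CPM in glial cells to 458 CPM in double-gated and 86 CPM in neuronal cells, Cdh19 from 117 to 86 and 8.50 CPM, and Cdh2 from 282 to 218 and 133 CPM. Ncam1 had the opposite order at the neuronal end, with 114, 114 and 197 CPM. In KO the values of Cdh6 were 507, 412 and 60.5 CPM and those of Ncam1 135, 174 and 263 CPM. Cells of both kinds captured in 1 droplet would also meet both gates, and their part was not tested. The double-gated cells had a median of 24975 UMIs in WT, against 19124 in glial and 10945 in neuronal cells.

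**Figure D3:**
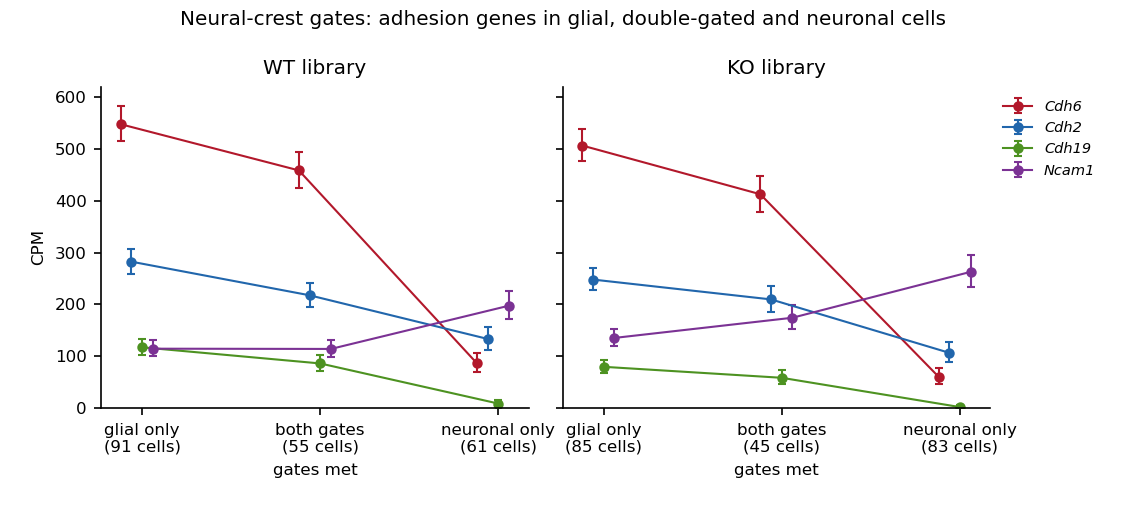
CPM of Cdh6, Cdh2, Cdh19 and Ncam1 in cells that met the glial gate only, both gates or the neuronal gate only, with exact 95% Poisson intervals. Cdh6, Cdh2 and Cdh19 were lowest in neuronal cells and Ncam1 was highest there, in both libraries.

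Cdh15 (M-cadherin, chr8:122847966-122867397) joins myoblasts before they fuse. It was highest in the myoblast gate, which requires Myog, with 158 CPM [142 to 176] in WT against 194 [182 to 206] in KO. Muscle progenitors, gated by Pax3, Pax7, Myf5 and Myod1 without Myog, had 57.4 CPM in WT against 67.8 in KO. The log2 ratio of myoblasts over progenitors was 1.46 [1.11 to 1.83] in WT and 1.51 [1.27 to 1.76] in KO. No other class exceeded 3.47 CPM in either library.

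Cdh2 and Cdh15 differed in opposite directions between muscle progenitors and myoblasts. Cdh2 was at 90.1 CPM in WT progenitors and 43.8 CPM in WT myoblasts, and at 76.5 and 30.8 CPM in KO. Within the myoblast gate, cells with 3 gate genes had Cdh15 at 88.6 CPM and Cdh2 at 82.4 CPM in WT, and cells with 5 or more had them at 178 CPM and 34.7 CPM. The KO cells went from 79.3 and 76.9 CPM to 247 and 16.4 CPM. Ncam1, which myoblasts carry at contacts, went with Cdh15, from 97.7 to 208 CPM in WT and from 139 to 288 CPM in KO. Median depth was 10861 and 19533 UMIs in these steps in WT and 13617.5 and 17619 in KO, and its part was not tested. For each of the 3 genes the intervals of the lowest and the highest step did not overlap in either library. In WT, Cdh2 was found in 7 of 21 cells with 3 gate genes (33.3%) and 29.4% of those with 5 or more. These shares were 44.4% and 19.5% in KO. A single WT myoblast held 17 of the 98 Cdh2 UMIs. Pdgfra was at 89.4 CPM in WT progenitors and 37.1 in WT myoblasts, and at 48.0 and 23.3 CPM in KO. The part of mesenchymal cells in these gates was not tested.

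**Figure D4:**
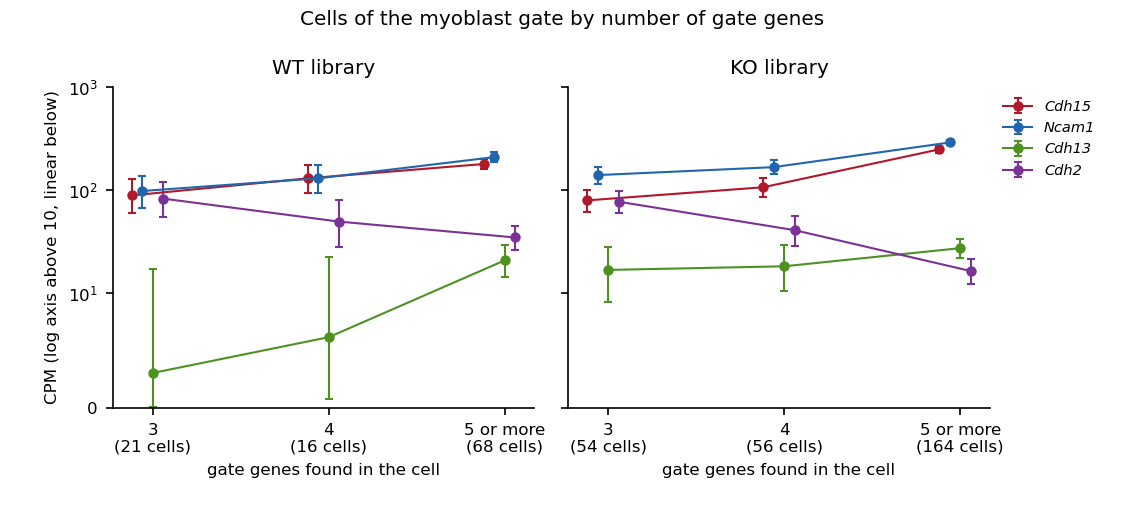
CPM of Cdh15, Ncam1, Cdh13 and Cdh2 in cells of the myoblast gate with 3, 4 or at least 5 of its genes, with exact 95% Poisson intervals. Cdh15 and Ncam1 were higher and Cdh2 lower in cells with more gate genes, in both libraries, with Cdh2 at 34.7 (WT) and 16.4 CPM (KO) in the last step.

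Cdh13 (T-cadherin, chr8:118283733-119324921) was low everywhere. Its highest class was the myoblast gate in both libraries, with 16.1 CPM [11.3 to 22.3] in WT against 23.9 [19.9 to 28.6] in KO. Muscle progenitors (10.9 and 10.7 CPM) and mural cells (10.6 and 15.9 CPM) followed, and the intervals of myoblasts and progenitors overlapped in WT. In the myoblast gate 23 of the 24 WT cells and 77 of the 82 KO cells with Cdh13 also held Cdh15. These are 21.9% and 28.1% of the cells, where the products of the shares are 18.5% and 23.6%.

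Cdh11 (OB-cadherin, chr8:102632095-102785642) is the cadherin of mesenchyme. The mural gate, defined by genes of pericytes and smooth muscle such as Rgs5, Notch3 and Myh11, had 459 CPM [442 to 477] in WT against 508 [487 to 530] in KO. Other mesenchyme, sclerotome and splanchnic mesenchyme lay between 194 and 214 CPM in WT and between 196 and 265 CPM in KO. Outside blood, endothelial cells with 5 or more gate genes (13.9 CPM) and glial cells (17.1 CPM) were lowest in WT with overlapping intervals, followed by neuronal cells (28.4 CPM), among the compared classes. Mural cells with 3 gate genes had Cdh11 at 366 CPM (WT) and 391 CPM (KO), and those with 5 or more at 562 and 623 CPM.

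Cdh3 (P-cadherin, chr8:106510891-106557297) is best known from epithelia, of which few cells were captured. The nephric class had 82.7 CPM [56.9 to 116] in 11 WT cells and 37.7 CPM [19.5 to 65.8] in 14 KO cells, and 5 WT cells of the gut epithelium had 72.6 CPM [42.3 to 116]. These levels rest on few cells: 1 WT nephric cell held 20 of 33 Cdh3 UMIs and 1 WT gut cell 9 of 17. Gata3, the marker read for the nephric class, was not highest there in either library. Among the 12 larger classes, the mural class and the coelomic and gonadal class were highest. Mural cells had 44.6 CPM [39.4 to 50.3] and the coelomic and gonadal class 41.6 CPM [35.8 to 48.2] in WT, which did not differ beyond counting error. In KO the coelomic and gonadal class (72.7 CPM [61.2 to 85.7]) lay above the mural cells (54.1 CPM [47.4 to 61.4]), with a log2 ratio of 0.43 [0.12 to 0.73]. Over the 12 classes Cdh3 and Cdh11 were correlated with r = 0.90 in WT and 0.92 in KO, again as a description of points that share a library. Mural cells with 5 or more gate genes had Cdh3 at 66.3 (WT) and 79.0 CPM (KO), and those with 3 at 25.7 and 34.6 CPM. Cdh13 differed the same way, from 3.03 to 19.3 CPM in WT and from 7.46 to 26.3 CPM in KO.

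Cdh2 (N-cadherin, chr18:16588877-16809246) was highest in glial cells, with 282 CPM [259 to 307] in WT against 248 [227 to 270] in KO. Mural cells followed with 162 and 157 CPM. Neuronal cells (133 CPM), other mesenchyme (121 CPM) and the coelomic and gonadal class (114 CPM) came next in WT. Myoblasts (43.8 CPM) and endothelial cells with 5 or more gate genes (34.8 CPM) were lowest outside blood among the classes of at least 50 cells, with overlapping intervals. In glial cells 85.7% of WT and 83.5% of KO cells held both Cdh2 and Cdh6, where the products of the single shares are 82.2% and 77.8%. Within the sclerotome, the precursor of vertebrae and ribs, Cdh2 was at 95.2 CPM in WT cells with 3 gate genes and 45.9 CPM in cells with 5 or more, and at 82.1 and 41.3 CPM in KO.

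Ncam1 (chr9:49502136-49798925) had no single lineage. In WT the mural, neuronal and myoblast classes had 207 CPM [196 to 219], 197 CPM [172 to 226] and 181 CPM [163 to 199], and in KO 242, 263 and 241 CPM, so neighbours in this order do not differ beyond counting error. Sclerotome had 104 CPM in WT against 144 in KO. WT mural cells with 3 gate genes had Ncam1 at 243 CPM [225 to 263] and those with 5 or more at 157 CPM [142 to 173]. The KO mural cells had 253 and 227 CPM in these steps. Neuronal cells with 5 or more gate genes had 214 CPM in WT and 284 in KO, and such myoblasts 208 and 288 CPM. Over the 12 classes Ncam1 and Cdh2 were correlated with r = 0.89 in both libraries, and both were low in macrophages and erythroid cells. Outside blood their order differed. In WT, mural cells of the whole gate were high in both (Cdh2 162 CPM), but glial cells, highest in Cdh2 (282 CPM), had Ncam1 at 114 CPM. WT myoblasts had Cdh2 at 43.8 CPM and Ncam1 at 181 CPM. Ncam1 was at 10.7 and 15.5 CPM in macrophages and 6.12 and 3.63 CPM in erythroid cells. These levels lay below the 107 and 144 CPM of the free RNA in barcodes of at most 100 UMIs. That RNA was estimated, from the median globin share of the cells, as only 1.06% of macrophage UMIs in WT and 0.932% in KO.

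Cdh1 (E-cadherin, chr8:106603351-106670246) lies 46053 bases beyond Cdh3 and is the cadherin of epithelia. It had 70 UMIs in 23 WT cells and 36 UMIs in 21 KO cells, too few for a comparison of the 12 classes, each of which had at most 4 UMIs per library. In WT, 12 cells with at least 2 Cdh1 UMIs held 59 of the 70, and all 12 held Epcam, an epithelial adhesion molecule. In KO, 10 such cells held 25 of the 36 UMIs and 9 of them held Epcam, which 7.69% of the KO cells without Cdh1 also held. Median depth was high, at 69179.5 UMIs in the 12 WT and 31764.5 in the 10 KO cells. Cdh2 was also found in 6 of the WT and 2 of the KO cells, and Cdh11 in 6 and 4. The part of depth, or of several cells in 1 droplet, was not tested. These WT cells also had 57 Cdh3 UMIs (74.9 CPM) and the KO cells 11 (24.1 CPM). They were chosen by their Cdh1 UMIs, so their levels are a description.

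Over the 12 classes and 14010 genes with at least 50 UMIs in each library, the genes most like each adhesion gene, by the lower of the WT and KO correlations of log2(CPM + 1), were ranked as a description. For Cdh5 they were Sox17, Sox7 and Aplnr (r = 0.99 for each in WT), of which Sox17 and Sox7 are transcription factors of endothelium. For Cdh15 they were Vgll2, Mrln and Mylk4, all genes of skeletal or striated muscle (0.97, 0.96 and 0.95 in WT). Cdh6 was most like Tspan7, Tmem132e and another cadherin, Cdh10 (0.93, 0.92 and 0.91). Cdh19 was most like Gm12688, Atp10b and Insc (0.99, 0.99 and 0.99), Cdh11 like P4ha3, Wdr86 and Ptn (0.96, 0.97 and 0.95), and Cdh3 like Sulf1, Wnt11 and Gabre (0.93, 0.92 and 0.90). The genes found for Cdh2 were Shisa4, Ptprf and Rbms3 (0.99, 0.97 and 0.97), for Cdh13 Hspb1, Lama2 and Tslp (0.89, 0.87 and 0.91) and for Ncam1 Agap1, Enah and Ift43 (0.98, 0.98 and 0.97). Cdh1 was under the UMI minimum. Each value rests on 12 points of 1 library.

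Between the libraries, the lineage cadherins differed by less than 1.5-fold in their main classes when all cells of these classes were used. A gene was counted as past the fold when its CPM differed by at least 1.5-fold and it had at least 20 UMIs in both libraries together. For Cdh5 the log2 ratio, KO over WT, was 0.13 [0.05 to 0.21] over the whole endothelial gate. In endothelial cells with 5 or more gate genes (634 and 653 CPM) it was 0.04 [-0.04 to 0.12]. Cdh6 in glial cells had a ratio of -0.11 [-0.24 to 0.01], Cdh11 in mural cells 0.15 [0.07 to 0.23], Cdh15 in myoblasts 0.29 [0.11 to 0.47], Cdh3 in mural cells 0.28 [0.02 to 0.54] and Cdh13 in myoblasts 0.57 [0.03 to 1.15]. The mural ratio of Cdh3 was 1.18, past the fold, among cells under 5% mitochondrial UMIs. Cdh19 was lower in KO, with -0.56 [-0.86 to -0.26] in glial and -0.56 [-0.98 to -0.15] in double-gated cells. When every gate was made stricter at once, cells that had met several gates could enter the glial class. The glial ratio of Cdh19 was then -0.18 with 1 gate gene more and -0.04 with 2 more, and that of Cdh6 0.16 and 0.23. Among glial cells of the main gate with 5 or more gate genes, Cdh19 had 129 CPM [113 to 148] in WT against 112 [95.2 to 131] in KO, and Cdh6 596 against 731 CPM.

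Over all cells, 3 of 10 adhesion genes were past the fold (Cdh13 and Cdh15 higher, Cdh1 lower in KO), where 16% of 17628 genes were. Cdh15 had 6.43 CPM in WT against 13.4 in KO over all cells, a log2 ratio of 1.06 [0.95 to 1.17], against 0.29 within myoblasts. Myoblasts and muscle progenitors were 1.27% and 0.703% of the WT cells and 3.36% and 1.54% of the KO cells.

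Ncam1 was higher in the KO library in 9 of the 10 classes outside blood, each time by less than 1.5-fold over all cells of the class. Splanchnic mesenchyme had 116 CPM in WT against 166 in KO, a log2 ratio of 0.51 [0.42 to 0.61]. Sclerotome had 0.47 [0.39 to 0.55] and other mesenchyme 0.35 [0.30 to 0.41], with 134 CPM in WT against 171 in KO. The difference was past 1.5-fold in some classes among cells with 5 or more gate genes. Such cells had 78.6 CPM in WT against 141 in KO in sclerotome and 97.0 against 200 in splanchnic mesenchyme. In the coelomic and gonadal class they had 98.2 against 165 CPM. The exception among the whole classes was the muscle progenitor class (-0.20 [-0.44 to 0.05]). When endothelial cells are restricted to those with 5 or more gate genes, Ncam1 was lower in KO there as well, with 21.2 and 11.3 CPM and a ratio of -0.91 [-1.47 to -0.36]. These levels lay below the 107 and 144 CPM of the free RNA, and its part was not tested. Of 7857 genes measured in all 10 classes, 15.3% were higher in KO in 9 or more of them and 6.4% in all.

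Cdh2 was lower in KO in 9 of these 10 classes, with the whole endothelial gate as the exception (0.09 [-0.13 to 0.31]), where 12.9% of the genes were lower in 9 or more. Splanchnic mesenchyme had 91.6 CPM in WT against 63.2 in KO (-0.54 [-0.68 to -0.40]), myoblasts -0.51 [-0.88 to -0.13] and the coelomic and gonadal class -0.43 [-0.69 to -0.17]. In other mesenchyme, which held the most cells, the ratio was -0.05 [-0.11 to 0.01]. Endothelial cells with 5 or more gate genes had -0.23 [-0.60 to 0.14]. In glial cells, its highest class, the ratio of -0.19 [-0.36 to -0.01] became 0.06 with 1 gate gene more for every class and 0.17 with 2 more. Glial cells of the main gate with 5 or more gate genes had Cdh2 at 310 CPM in WT and 313 in KO.

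Cdh11 was higher in KO in 9 of the 10 classes as well. The exception was the myoblast class (-0.02 [-0.31 to 0.27]), and the count was 5 of 10 with 1 gate gene more, under 5% mitochondrial UMIs and with gating on thinned cells. Other mesenchyme had 214 CPM in WT against 265 in KO (0.31 [0.26 to 0.35]). Pdgfra, a gate gene of other mesenchyme, had 183 and 120 CPM in that class, and its part was not tested. Endothelial cells with 5 or more gate genes had Cdh11 at 13.9 and 7.60 CPM (-0.87 [-1.57 to -0.20]). These levels lay below the 134 and 153 CPM of the free RNA, and 1 cell held 11 of the 50 WT and 1 cell 10 of the 31 KO UMIs. Pdgfra was at 21.2 and 7.36 CPM and median depth at 29014 and 44174 UMIs in these cells. The part of free RNA and depth was not tested. The largest ratios lay in glial (17.1 and 56.1 CPM, 1.71 [1.14 to 2.32]) and neuronal cells (28.4 and 107 CPM, 1.92 [1.33 to 2.55]), and single cells held large shares of the UMIs. In KO, 1 glial cell held 45 of the 120 Cdh11 UMIs and 1 neuronal cell 36 of the 119. KO glial cells with exactly 3 gate genes had 152 CPM and those with 5 or more 16.0 CPM, against 14.9 CPM in WT cells with 5 or more. In KO neuronal cells the same steps had 370 and 38.1 CPM. WT neuronal cells with 5 or more gate genes had 20.99 CPM, below the KO level but with an interval overlapping that of KO. The neuronal ratio was -0.55 with 1 gate gene more for every class at once, where cells that had met several gates could enter the class.

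Cdh13 had the largest ratio of the adhesion genes within a class of at least 20 UMIs. In splanchnic mesenchyme, which surrounds the gut, it had 24 UMIs in 22 of 777 WT cells (1.52 CPM) and 76 UMIs in 50 of 444 KO cells (8.20 CPM), a log2 ratio of 2.43 [1.75 to 3.16]. The class differed in makeup as well: a UMI of Barx1, one of its gate genes, was found in 35.5% of its WT and 4.50% of its KO cells. Among cells without a Barx1 UMI, Cdh13 had 1.93 CPM [1.18 to 2.98] in WT against 7.94 [6.16 to 10.1] in KO. Nkx2-3, another gate gene, had 27.4 and 116 CPM in these same cells, and the part of this makeup in the difference was not tested. KO cells with 5 or more gate genes had Cdh13 at 15.8 CPM [11.3 to 21.5], from 40 UMIs in 111 cells, and Cdh2 at 32.4 CPM. The 60 such WT cells had Cdh13 at 2.17 CPM [0.591 to 5.55], from only 4 UMIs, and Cdh2 at 112 CPM. In sclerotome and other mesenchyme Cdh13 was past the fold too, with 0.60 [0.12 to 1.10] and 0.62 [0.19 to 1.06] at levels of 2.04 to 4.33 CPM, although the sclerotome ratio was -0.24 among cells under 5% mitochondrial UMIs.

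**Figure D5:**
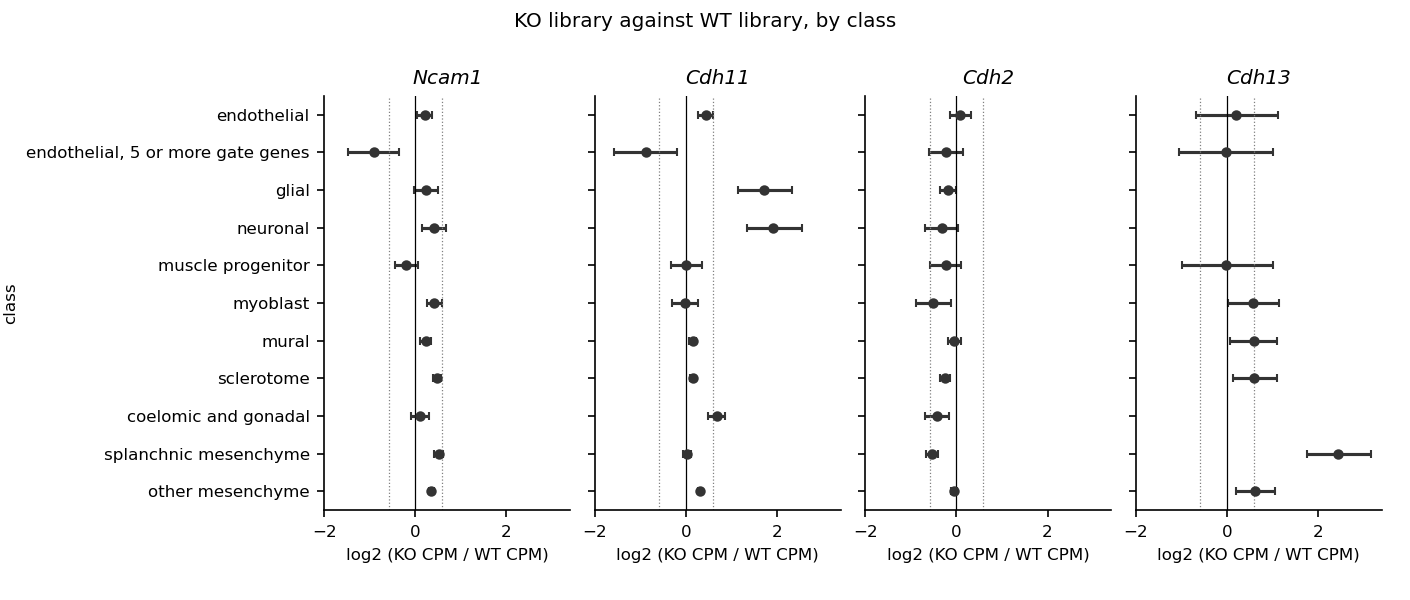
log2 ratio of KO over WT CPM for Ncam1, Cdh11, Cdh2 and Cdh13 in the 10 classes outside blood and in endothelial cells with 5 or more gate genes, with exact 95% intervals of counting error. Dotted lines mark 1.5-fold, and genes with fewer than 20 UMIs in a class have no point. Ncam1 lay right of 0 in 9 of 10 classes and Cdh2 left of 0 in 9. Endothelial cells with 5 or more gate genes lay left of 0 for Ncam1 (-0.91) and Cdh11 (-0.87), at levels below those of the free RNA.

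The coelomic and gonadal class, the lining of the body cavity with the early gonad, held 3 of its 6 measured adhesion genes past the fold, where 17.4% of all genes were. Cdh3 went from 41.6 to 72.7 CPM (0.80 [0.48 to 1.13]) and Cdh11 from 132 to 211 CPM (0.68 [0.49 to 0.87]). Cdh6 went from 26.4 CPM, 114 UMIs in 45 cells, to 9.79 CPM, 19 UMIs in 11 cells (-1.43 [-2.21 to -0.72]), a ratio that was 0.69 when cells were gated on thinned counts. Cells with 3 gate genes had Cdh6 at 35.7 and 7.92 CPM and those with 4 at 40.7 and 7.11 CPM. Cells with 5 or more had 16.6 CPM [11.7 to 22.8] in WT and 13.1 [6.30 to 24.1] in KO, with overlapping intervals. In KO, 1 cell held 58 of the 409 Cdh11 UMIs. Barx1 differed in this class as well, with 37.7 CPM in WT against 3.61 in KO, and its part was not tested.

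The counts of adhesion genes past the fold, read against the same count over all genes, follow for the other classes. In the endothelial gate 0 of 7 were past it, with 12.8% of genes, and in endothelial cells with 5 or more gate genes 2 of 5 (Cdh11 and Ncam1, both lower), with 13% of genes. Glial cells had 1 of 5 (Cdh11) where 17.1% of genes were past it, neuronal cells 1 of 4 (Cdh11) where 23.4% were, and sclerotome 1 of 7 (Cdh13) where 12.9% were. Splanchnic mesenchyme had 1 of 7 (Cdh13, with 15.2% of genes) and other mesenchyme 1 of 7 (Cdh13, with 11.5%), where the median log2 ratio was 0.24 over the 7 adhesion genes and 0.05 over all genes. No adhesion gene was past the fold in mural cells (0 of 6, with 11.9%), myoblasts (0 of 5, with 16.1%), muscle progenitors (0 of 5, with 17.6%) or macrophages (0 of 3, with 14.1%). Erythroid cells had 2 of 3 (Cdh2 and Ncam1, both lower), where 47% of genes were past it and the median of all genes was -0.52. Globin made up 60.3% of the erythroid UMIs in WT and 70.2% in KO, which leaves a smaller share for other genes in KO. The WT free RNA held 4.08% globin UMIs and the KO free RNA 2.10%. The part of globin in these ratios was not tested.

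Gene length moved with some of these ratios. In other mesenchyme the fifth of genes above 74.3 kb had a median log2 ratio of 0.14, and all genes one of 0.04. In sclerotome these medians were 0.15 and 0.05, and in the coelomic and gonadal class -0.01 and -0.01. Ncam1 spans 297 kb, Cdh11 154 kb, Cdh13 1041 kb and Cdh2, which was lower in KO, 220 kb. The part of gene length in these ratios was not tested.

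The catenins and other partners of the junctions were read from a fixed list. Of 15 adherens junction genes, 12 were measured in other mesenchyme, with a median log2 ratio of -0.01 (all genes 0.05) and 1 past the fold, where 11.5% of all genes were: Ctnna2 (αN-catenin, 3.74 and 6.02 CPM). Ctnnb1, β-catenin, was the most abundant of them, with 328 CPM in WT against 320 in KO other mesenchyme (-0.03 [-0.07 to 0.00]). It was highest in glial cells (469 and 439 CPM), the class highest in Cdh2 and Cdh6. Jup (plakoglobin) was highest in the endothelial gate (78.5 and 78.4 CPM) and past the fold in glial (31.6 and 15.4 CPM) and neuronal cells (25.5 and 8.12 CPM), lower in KO in both. In the coelomic and gonadal class Jup was past it in the other direction, with 23.8 CPM in WT against 39.7 in KO. Ptprb, the phosphatase that binds VE-cadherin, was at 87.8 and 82.8 CPM in the endothelial gate.

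Among 13 further cadherins, most of them of the classical type, 9 were measured in other mesenchyme and 3 were past the fold, all higher in KO (Cdh4, Cdh7 and Cdh12), with a list median of 0.31, where 11.5% of all genes were past it. Cdh4 had 5.79 CPM in WT against 10.7 in KO other mesenchyme. It was past the fold in the opposite direction in mural cells (6.06 and 1.82 CPM) and splanchnic mesenchyme (6.65 and 2.05 CPM). Of the same list, 0 of 6 measured genes were higher and 2 lower in mural cells (Cdh4 and Cdh9), and 1 of 8 was higher (Cdh7) and 2 lower (Cdh4 and Cdh8) in splanchnic mesenchyme, where 11.9% and 15.2% of all genes were past the fold. Cdh24 was the most abundant in other mesenchyme, with 13.2 CPM in WT against 14.0 in KO. Cdh10 was highest in glial cells like Cdh6, with 65.8 CPM in WT against 64.5 in KO glial cells. Of 7 relatives of Ncam1 and polysialyltransferases, the enzymes that add polysialic acid to it, 7 were measured in other mesenchyme and 1 was past the fold (11.5% of all genes): Alcam, an adhesion molecule of the same superfamily, with 55.3 CPM in WT against 83.3 in KO (0.59 [0.51 to 0.67]). In sclerotome 2 of 7 were past it (Alcam and Nrcam), with 12.9% of all genes, Alcam with 30.5 and 49.2 CPM. St8sia2, a polysialyltransferase, was highest in myoblasts (35.3 and 43.1 CPM), a class with high Ncam1. The other polysialyltransferase of the list, St8sia4, was highest in macrophages (52.0 and 62.4 CPM), where Ncam1 was at 10.7 and 15.5 CPM.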

How the data were processed

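The deposited files hold UMI counts per gene and barcode, made by the authors with Cell Ranger 3.1.0 on mm10, as the submitters' processing notes name them, without normalization. The authors' cell calls were not used. Here, barcodes with at least 2000 UMIs and under 10% mitochondrial UMIs were kept, and each cell was assigned to 1 of 14 classes when it held UMIs of at least 2 to 4 gate genes (erythroid cells, at least 20% globin UMIs). Cells meeting several gates or none were set aside, and no doublet caller was run. Summed counts were compared as CPM with exact 95% intervals, which cover counting error only, since each genotype had 1 library. A gene was counted past the fold at 1.5-fold or more with at least 20 summed UMIs. The adhesion genes were all named, with the 3 genes most like each. Members, gates and gene lists were chosen with earlier results of these data known. Splits by number of gate genes above the gate, by Barx1 and by double gating were added after seeing the data. Alternatives changed gates, depth (5000 UMIs), scaling (TMM factors), mitochondrial limit, free RNA, Pdgfrb-containing KO cells, cells above 60000 UMIs and weighting per cell. Stricter gates were set for all classes at once, so cells that had met several gates could enter a class. Calculations used Python 3.11.15, numpy 2.4.6, scipy 1.17.1, pandas 2.3.3 and matplotlib 3.10.9 and were tested on simulated data. Positions are of GENCODE M21 on GRCm38.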

Additional observations from a re-analysis of the deposited data

How the results depend on the processing

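All values are log2 ratios of KO over WT unless said otherwise. No paired analysis was possible because each genotype had 1 library, and counting intervals do not hold the spread between embryos. The 13 main ratios gave 131 alternative values: 89 moved by less than their counting interval, and 42 by more. Only splanchnic Cdh13 among these ratios was past 1.5-fold, and it kept its sign. Of those below 1.5-fold, glial Cdh2 and Cdh6, endothelial Cdh5 and mural Cdh11 changed sign. With all 10 classes outside blood, Ncam1 was higher in KO in 7 to 9, Cdh11 in 5 to 10, and Cdh2 was lower in 8 to 10. The cause of the moves was not tested.

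With under 5% mitochondrial UMIs, Cdh2 became 0.16 in glial cells and -0.13 in other mesenchyme, Cdh3 1.18 in mural cells, Cdh5 0.47 in the endothelial gate, Cdh11 0.30 in mural cells and 0.57 in other mesenchyme, Cdh13 3.53 in splanchnic mesenchyme, Cdh15 0.0086 in myoblasts, and Ncam1 0.45 in mural cells and 0.26 in other mesenchyme. With 1 gate gene more, glial Cdh2, Cdh6 and Cdh19 became 0.057, 0.16 and -0.18, endothelial Cdh5 0.38, splanchnic Cdh13 3.37 and mural Ncam1 0.49. With 2 gate genes more, glial Cdh2, Cdh6 and Cdh19 became 0.17, 0.23 and -0.044, mural Cdh11 0.24, and other mesenchyme Cdh11 and Ncam1 0.26 and 0.24. Gating on thinned cells gave 0.24, 0.33 and -0.030 for glial Cdh2, Cdh6 and Cdh19, -0.10 for Cdh11 and 0.039 for Ncam1 in mural cells, 0.25 and 0.17 for them in other mesenchyme, and 3.60 for splanchnic Cdh13. Without cells above 60000 UMIs, glial Cdh2, Cdh6 and Cdh19 became 0.024, 0.13 and -0.24 and endothelial Cdh5 -0.13. The mean of per-cell CPM gave 0.036, 0.20 and -0.049 for glial Cdh2, Cdh6 and Cdh19, -0.10 for endothelial Cdh5 and 0.29 for Ncam1 in other mesenchyme. Without KO cells holding a Pdgfrb UMI, endothelial Cdh5 became 0.31, glial Cdh6 0.16 and mural Cdh11 0.019.

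Reversed ratios were coelomic and gonadal Cdh6 (0.69, thinned gating), neuronal Cdh11 (-0.55 and -0.60 with 1 and 2 gate genes more, -2.57 under 5% mitochondrial UMIs, -1.26 with thinned gating), sclerotome Cdh13 (-0.24, under 5% mitochondrial UMIs) and erythroid Ncam1 (0.13, at least 40% globin UMIs). Between classes of WT, the log2 ratio of mural over coelomic and gonadal Cdh3 moved from 0.10 to 0.43 with per-cell CPM and -0.31 with 2 gate genes more. Glial over neuronal Cdh6 moved from 2.67 to 3.19 with per-cell CPM, mural over other mesenchyme Cdh11 from 1.10 to 1.24 and 0.95 with the same pair of settings, and mural over neuronal Ncam1 from 0.07 to 0.81 and -0.40 with them and -0.32 with 1 gate gene more.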
